A study of Mus musculus with 2 samples.

Results

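The 3 lambda light chain V genes of the mouse, IGLV1, IGLV2 and IGLV3, were followed through the antibody transcripts of B cells from Peyer's patches, which are lymphoid tissue in the wall of the small intestine. A member was any productive contig of the lambda locus that carried 1 of these V genes, where a contig is a receptor transcript assembled from the reads of a single cell barcode. Members were found in 358 of 6993 barcodes, as 366 contigs. The Cre+ library held 203 of these contigs in 199 of its 3748 barcodes, and the Cre- library 163 contigs in 159 of 3245 barcodes. Every productive lambda contig belonged to 1 of the 3 genes.

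Mice of the genotype H2-Ab1 fl/fl; Villin:Cre+ gave the Cre+ library; in these a recombinase driven by the villin promoter deletes the MHC class II beta chain gene in the intestinal epithelium. Its control, the Cre- library, was made from Villin:Cre- mice, which carry the same H2-Ab1 fl/fl alleles without the recombinase. Per the labels, white blood cells were enriched with magnetic beads against CD45 and cells of 4 adult female mice were pooled per genotype, so there was 1 library per genotype. No difference below therefore has a replicate check and none was tested; brackets hold exact 95% Clopper-Pearson intervals, and the interval of a difference was joined from the exact intervals of both shares. All of them cover counting error only. The groups follow the sample labels, because the design text prints Villin:Cre- for either group, and with H2-Ab1 unmeasured the genotype could not be checked. Gene expression was not used here, so neither CD45 nor any marker of a B cell stage was checked.

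A B cell builds its light chain by joining a V gene to a J gene, which removes or inverts the DNA between them, and it usually tries the kappa locus before the lambda locus. The stretch made at the junction, the CDR3, lies at the centre of the antigen-binding site. The mouse lambda locus is very small, so it can make few light chains beside the many of the kappa locus. Cells then switch the constant region of the heavy chain from IgM or IgD to IgG or IgA, and in Peyer's patches mainly to IgA.

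In the RefSeq gene table of GRCm38.p6 the locus lies on chromosome 16. It is known to be transcribed towards lower coordinates, which sets the order used here. Iglv2 comes first, at chr16:19260403-19260844, followed by Iglv3 at chr16:19241208-19241679. Next are the joining gene Iglj2 at chr16:19200198-19200235 and the constant gene Iglc2 at chr16:19198536-19198852. Iglv1 lies downstream of them, at chr16:19085017-19085460. It is followed by Iglj3 at chr16:19067041-19067078, Iglc3 at chr16:19065365-19065681, Iglj1 at chr16:19063225-19063262 and Iglc1 at chr16:19061752-19062071. Each V gene thus has its nearest J gene downstream, and Iglv1 lies beyond Iglj2.

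The sequences that most lambda chains share are few. These are the most frequent CDR3s of the V-J pairs, from the deposited contigs and written 5′ to 3′ from the first to the last base of the CDR3. Capitals mark the junction end, where the J gene is joined. This is from codon 8 on in IGLV1 and IGLV2 chains and the last 4 codons in IGLV3 chains.
IGLV1-IGLJ1, most frequent: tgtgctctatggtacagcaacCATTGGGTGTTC
IGLV1-IGLJ1, second: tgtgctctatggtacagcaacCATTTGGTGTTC
IGLV1-IGLJ3, most frequent: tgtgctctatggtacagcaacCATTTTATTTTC
IGLV1-IGLJ3, second: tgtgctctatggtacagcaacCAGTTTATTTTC
IGLV1-IGLJ2, most frequent: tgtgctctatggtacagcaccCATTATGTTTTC
IGLV2-IGLJ2, most frequent: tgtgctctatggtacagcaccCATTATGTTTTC
IGLV2-IGLJ2, second: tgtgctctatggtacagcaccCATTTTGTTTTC
IGLV2-IGLJ1, most frequent: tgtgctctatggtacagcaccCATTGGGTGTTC
IGLV3-IGLJ2, most frequent: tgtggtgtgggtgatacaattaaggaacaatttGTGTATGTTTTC

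IGLV1 was the main lambda V gene in both libraries. It was found in 146 of 199 lambda barcodes of the Cre+ library, 73.4% (66.7 to 79.4), and in 105 of 159 of the Cre- library, 66.0% (58.1 to 73.4). IGLV2 was found in 27 Cre+ barcodes, 13.6% (9.14 to 19.1), and in 30 Cre- barcodes, 18.9% (13.1 to 25.8). IGLV3 was found in 30 Cre+ barcodes, 15.1% (10.4 to 20.8), and in 27 Cre- barcodes, 17% (11.5 to 23.7). The intervals of IGLV2 and IGLV3 overlapped within each library. With the V gene told by base 20 of the CDR3, an alternative chosen after seeing the data, IGLV2 stood at 15.6% in Cre+ and 19.5% in Cre-. In percentage points, Cre+ minus Cre-, IGLV1 differed by 7.33 (-2.60 to 17.3), IGLV2 by -5.30 (-13.6 to 2.70) and IGLV3 by -1.91 (-10.1 to 6.03). All 3 intervals include 0. The tables also held V-bearing lambda contigs that were not productive, and IGLV1 led among these too, with 100 in Cre+ and 90 in Cre-, against 14 and 17 for IGLV2 and 18 and 7 for IGLV3.

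**Figure D1:**
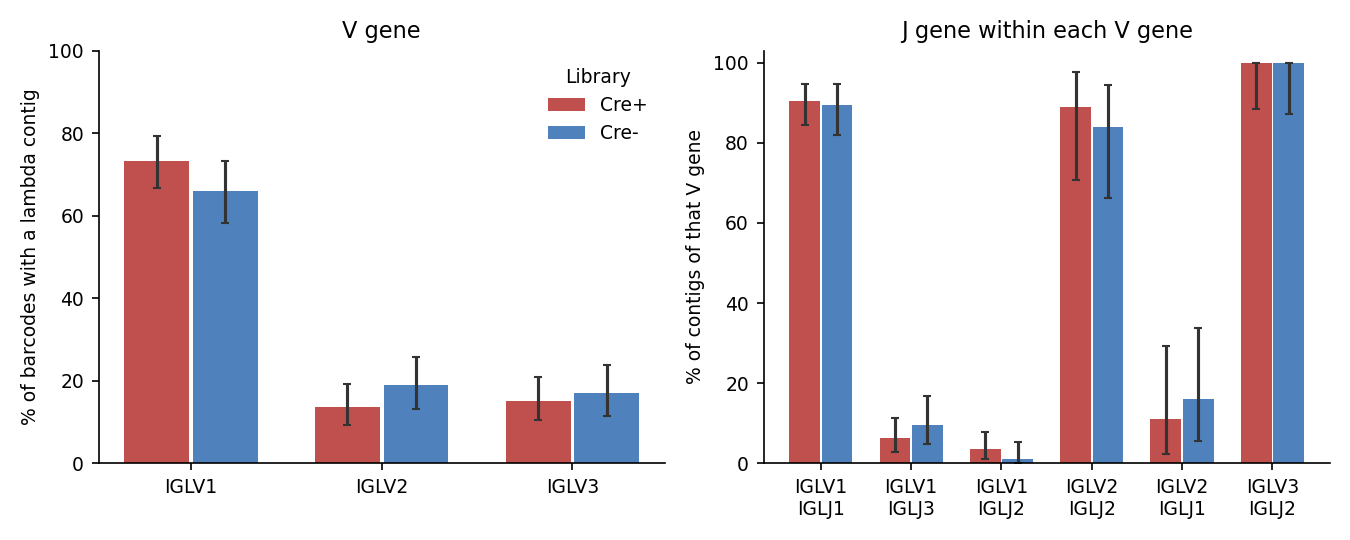
Left, the percentage of lambda barcodes with each lambda V gene; right, the percentage of contigs of each V gene that carry each J gene, by library (Cre+ red, Cre- blue), with exact 95% intervals as bars. IGLV1 leads in both libraries, and each V gene has 1 dominant J gene that is the same in both.

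Each V gene kept to 1 main J gene. IGLV1 was joined to IGLJ1 in 132 of 146 Cre+ contigs, 90.4% (84.4 to 94.7), and in 94 of 105 Cre- contigs, 89.5% (82.0 to 94.7). IGLV1 was joined to IGLJ3, which lies nearest to it, in 9 Cre+ and 10 Cre- contigs. IGLV2 was joined to IGLJ2 in 24 of 27 Cre+ contigs, 88.9% (70.8 to 97.6), and in 26 of 31 Cre- contigs, 83.9% (66.3 to 94.5). The remaining IGLV2 contigs, 3 in Cre+ and 5 in Cre-, carried IGLJ1, across the longest distance in the locus. IGLV3 was joined to IGLJ2 in 30 of 30 Cre+ and 27 of 27 Cre- contigs. The constant gene followed the J gene: IGLC1 was called in 234 of 234 IGLJ1 contigs, IGLC2 in 104 of 113 IGLJ2 contigs and IGLC3 in 13 of 19 IGLJ3 contigs. The 9 IGLJ2 contigs with IGLC3 and the 6 IGLJ3 contigs with IGLC2 are uncertain, since these constant genes are close copies of each other.

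The pair IGLV1-IGLJ2 goes against the order of the genes, since IGLJ2 lies upstream of IGLV1. It was called in 5 Cre+ contigs and 1 Cre- contig. The CDR3 shows how IGLV1 and IGLV2 differ. Counted from 1 at the first base of the CDR3, the leading IGLV2 sequence differs from the leading IGLV1 sequence by A20C within the first 24 bases, inside codon 7. Capitals mark codon 7 in these 3 sequences.
IGLV1-IGLJ1: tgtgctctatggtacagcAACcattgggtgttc
IGLV1-IGLJ2: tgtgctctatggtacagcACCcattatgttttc
IGLV2-IGLJ2: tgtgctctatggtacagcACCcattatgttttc
Codon 7 was AAC in 224 and AAT in 2 of 226 IGLV1-IGLJ1 contigs, and AAC in 19 of 19 IGLV1-IGLJ3 contigs. It was ACC in 49 of 50 IGLV2-IGLJ2 contigs. All 6 contigs called IGLV1-IGLJ2 carried ACC, and their most frequent CDR3 is letter for letter the leading one of IGLV2-IGLJ2. In the opposite direction, 2 of 8 contigs called IGLV2-IGLJ1 carried AAC. The call of IGLV1 or IGLV2, which are close copies, is therefore uncertain in these 8 contigs, and the V region outside the CDR3 was not in the tables.

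Few junctions accounted for most lambda chains. Over both libraries there were 37 distinct combinations of V gene, J gene and CDR3 nucleotides among 366 contigs, 20 in Cre+ and 29 in Cre-. The 12 combinations found in both libraries covered 190 of 203 Cre+ contigs, 93.6% (89.3 to 96.5), and 144 of 163 Cre- contigs, 88.3% (82.4 to 92.8). The pools of mice thus shared the nucleotides of most lambda junctions. By the same count, kappa contigs with a combination found in both libraries made up 80.0% in the Cre+ library and 84.7% in the Cre- library. Distinct combinations per contig stood at 9.85% for lambda against 26.3% for kappa in the Cre+ library. In the Cre- library they stood at 17.8% for lambda against 26.9% for kappa. The number of contigs differs greatly between the chains, and a larger sample repeats itself more often, so these ratios are given as a description.

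IGLV1-IGLJ1, the pair with the most contigs, also had the most distinct CDR3s. The leading IGLV1-IGLJ1 sequence was found in 66 of 132 Cre+ contigs, 50% (41.2 to 58.8), and in 47 of 94 Cre- contigs, 50% (39.5 to 60.5). The second, which differs from it by G26T, was found in 26 Cre+ and 13 Cre- contigs. The next differs by T24C and was found in 23 Cre+ and 15 Cre- contigs, and a further one by A23T in 8 and 6. All 3 of these substitutions fall in the capitals above, at the junction. In IGLV1-IGLJ3 the leading sequence was found in 6 of 9 Cre+ and 4 of 10 Cre- contigs, and the second, with T24G, in 3 of each.

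The leading IGLV2-IGLJ2 sequence was found in 20 of 24 Cre+ contigs, 83.3% (62.6 to 95.3), and in 20 of 26 Cre- contigs, 76.9% (56.4 to 91.0). The second differs by A26T and was found in 2 contigs of each library. The single IGLV3-IGLJ2 sequence printed above was found in 29 of 30 Cre+ contigs, 96.7% (82.8 to 99.9), and in 25 of 27 Cre- contigs, 92.6% (75.7 to 99.1). IGLV3 thus had the same junction in 54 of 57 contigs. Its CDR3 was also longer, at 45 bases in 55 of 57 contigs. A CDR3 of 33 bases was found in 238 of 251 IGLV1 and 56 of 58 IGLV2 contigs, and in 0 of 57 IGLV3 contigs. The other 2 IGLV3 contigs had a CDR3 of 12 bases. In IGLV1-IGLJ2, IGLV2-IGLJ1 and IGLV3-IGLJ2 the second place was shared by sequences found once each, which are not printed.

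Activated B cells mutate their V regions, so CDR3s found once were counted by heavy chain class. Found once here means 1 contig with that V gene, J gene and CDR3 over both libraries. Among lambda contigs of barcodes with exactly 1 heavy chain, a CDR3 found once was seen in 0 of 6 switched and 5 of 168 unswitched contigs of the Cre+ library, where switched means IgA or IgG. In the Cre- library it was seen in 2 of 13 switched and 11 of 132 unswitched contigs, and 4 of the 13 were contigs at 1 or 2 UMIs in the largest kappa lineage. The measure leaves out a changed CDR3 carried by 2 cells, such as that of the switched IgG2b pair described below. The unswitched shares were 2.98% (0.973 to 6.81) in Cre+ and 8.33% (4.23 to 14.4) in Cre-. Both switched contigs with a CDR3 found once came from IgA cells of the Cre- library. The first, with heavy gene IGHV5-17 and 32 lambda UMIs, differs from the leading IGLV1-IGLJ1 sequence by A14T and C18T. A UMI, or unique molecular identifier, tags 1 captured transcript. The other, with IGHV1-26 and 97 lambda UMIs, differs by A9T. These 3 substitutions lie before the junction, in the stretch that the leading sequences share. The substitution G17A recurred in 5 contigs of IGLV1-IGLJ1, IGLV1-IGLJ3 and IGLV2-IGLJ2, each in a CDR3 found once and all in IgM cells. Of the unswitched contigs counted, 1 IGLV1-IGLJ2 contig carried a CDR3 found 4 times as IGLV2-IGLJ2. Another, called IGLV2-IGLJ1, carried a CDR3 found 38 times as IGLV1-IGLJ1, and 1 more IGLV2-IGLJ1 contig carried one found 14 times so. Their V gene call is uncertain, so these CDR3s are rare only by that call.

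Cells with lambda as the main light chain almost never shared a heavy chain, even with the same lambda V gene, J gene and CDR3. A cell was a barcode with exactly 1 productive heavy chain and a light chain, and its light chain was the one with the most UMIs, with ties counted as kappa. This leaves out 4 barcodes of the largest Cre- lineage, which share a heavy chain and hold the leading IGLV1-IGLJ1 CDR3. Their kappa chain had as many UMIs as lambda or more. Cells of 1 library with the same heavy V gene, heavy J gene and CDR3 length were joined at 85% or more nucleotide identity of the heavy CDR3. The 149 lambda cells of the Cre+ library fell into 149 lineages, and the 122 of the Cre- library into 121. The single pair was made of 2 IgG2b cells of the Cre- library that used IGHV1-80 and IGHJ2. Their heavy CDR3s of 18 codons differed at 1 base, and both carried the same light chain CDR3, with capitals as above.
IGLV1-IGLJ1 of the IgG2b pair: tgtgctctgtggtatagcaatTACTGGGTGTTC
Against the leading sequence it has A9G, C15T, C21T, C22T and T24C, and it was found in no other contig. The lambda chain had 158 UMIs in 1 cell of the pair and 4 in the other.

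In the Cre+ library 149 of 3262 cells, 4.57% (3.88 to 5.34), were lambda cells, and in the Cre- library 122 of 2889 were, 4.22% (3.52 to 5.02). The Cre+ minus Cre- difference of 0.345 points has an interval from -0.711 to 1.39. By heavy chain class, lambda was found in 99 of 1909 Cre+ IgM cells, 5.19% (4.23 to 6.28), and in 73 of 1525 Cre- IgM cells, 4.79% (3.77 to 5.98). Among IgD cells it was found in 45 of 981 in the Cre+ library, 4.59% (3.37 to 6.09), and in 40 of 714 in the Cre- library, 5.60% (4.03 to 7.55). The lambda share of unswitched cells was thus close to 5% in both libraries, 4.98% (4.22 to 5.84) in Cre+ and 5.05% (4.18 to 6.04) in Cre-. Of the unswitched lambda cells, 31.3% in Cre+ and 35.4% in Cre- were called IgD, against 34.1% and 31.7% of the unswitched kappa cells. Naive cells make both classes, and a cell was counted under the one assembled; cells with no constant gene called were left out of shares by class.

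Switched cells carried lambda less often than unswitched cells, and in the Cre- library this depended on 1 large kappa lineage. Of switched cells, 4 of 354 carried lambda in the Cre+ library, 1.13% (0.309 to 2.87), and 9 of 640 did in the Cre- library, 1.41% (0.645 to 2.65). The switched minus unswitched difference was -3.85 points in the Cre+ library (-5.04 to -1.95) and -3.64 in the Cre- library (-4.89 to -2.12). The largest lineage, here cells with identical heavy V, heavy J and heavy CDR3, had a kappa chain in both libraries and held 60 cells in Cre+ and 394 in Cre-. Without it the difference was -3.66 in the Cre+ library (-4.95 to -1.48) and -1.40 in the Cre- library (-3.60 to 1.87). Without it the lambda share of switched cells was 1.33% (0.363 to 3.37) in the Cre+ library and 3.64% (1.68 to 6.80) in the Cre- library. The Cre+ minus Cre- difference between these last shares, -2.31 points, has an interval from -5.62 to 0.516.

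IgA is the class secreted into the gut, and lambda was rare among IgA cells. It was the light chain of 1 of 202 IgA cells in the Cre+ library, 0.495% (0.0125 to 2.73), and of 5 of 527 in the Cre- library, 0.949% (0.309 to 2.20). Without the largest lineages these were 1 of 150 cells in the Cre+ library, 0.667%, and 5 of 134 in the Cre- library, 3.73% (1.22 to 8.49). Among IgG2b cells lambda was found in 2 of 96 in the Cre+ library and 4 of 92 in the Cre- library. It was seen in 0 of 54 IgG1 cells of the Cre+ library, where 3 counts would be 5.56%, and in 0 of 21 of the Cre- library, where they would be 14.3%. The remaining switched lambda cell was an IgG3 cell of the Cre+ library. By V gene, the switched lambda cells used IGLV1 in 4 Cre+ and 6 Cre- cells and IGLV2 in 0 and 3. IGLV3 was the main light chain of 0 of 354 switched Cre+ and 0 of 640 switched Cre- cells (exact upper bounds 1.04% and 0.575%), and of 16 of 2890 unswitched Cre+ and 20 of 2239 unswitched Cre- cells. The 640 include the largest kappa lineage, and only 247 cells remain without it, so the bound of 0.575% rests largely on that lineage. In the Cre+ library 1 IgA cell held an IGLV3 contig at 10 UMIs, beside a kappa chain at 27.

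A kappa chain accompanied lambda in about 3 of 10 barcodes. It was found in 65 of 199 lambda barcodes of the Cre+ library, 32.7% (26.2 to 39.7), and in 48 of 159 of the Cre- library, 30.2% (23.2 to 38.0). Where a barcode had 2 or more heavy chains, and so perhaps 2 cells, kappa was present in 14 of 15 cases in the Cre+ library and 7 of 8 in the Cre- library. Such barcodes made up 7.54% of lambda barcodes in the Cre+ library and 5.03% in the Cre- library, against 4.22% and 2.74% of all barcodes with a heavy chain. With exactly 1 heavy chain, kappa was found in 47 of 171 Cre+ lambda barcodes, 27.5% (20.9 to 34.8), and in 39 of 141 Cre- lambda barcodes, 27.7% (20.5 to 35.8). Most of these pairs were thus in barcodes with a single heavy chain. Seen from the kappa side, 1.5% of Cre+ and 1.40% of Cre- kappa barcodes with 1 heavy chain held a lambda contig.

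The UMIs of the 2 chains varied widely between pairs. Among these barcodes lambda had more UMIs than kappa in 25 of 47 in the Cre+ library and 20 of 39 in the Cre- library, and fewer in 22 and 17. The chains were within 3 times of each other in 22 barcodes of each library. Both had 3 UMIs or more in 33 of 47 Cre+ and 24 of 39 Cre- barcodes. Kappa was at 1 or 2 UMIs in 14 Cre+ and 11 Cre- barcodes, and lambda in 0 Cre+ and 7 Cre- barcodes. Pairs thus ran from 2 well-covered chains to 1 chain beside a trace of the other. In some Cre- barcodes both chains were at 1 or 2 UMIs, and these are among the pairs within 3 times of each other.

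**Figure D2:**
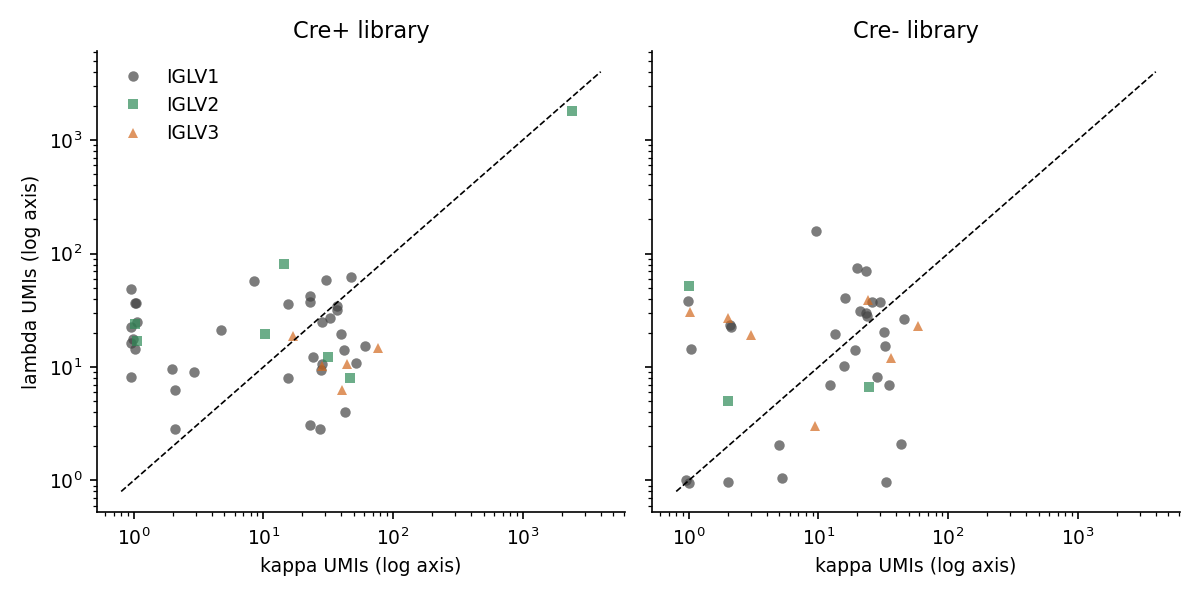
Lambda UMIs (y, log axis) against kappa UMIs (x, log axis) in barcodes with exactly 1 heavy chain and both light chains, 47 in the Cre+ library (left) and 39 in the Cre- library (right), by lambda V gene; points are jittered slightly and the dashed line marks equal UMIs. Some points lie at 1 or 2 kappa UMIs, and 7 Cre- points at 1 or 2 lambda UMIs. Of the rest, 1 IGLV2 barcode of the Cre+ library lies far above the others on both axes.

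Lambda contigs were also counted in the largest heavy chain lineages, whose light chain is kappa. The largest lineage of the Cre+ library, defined by IGHV5-17 and IGHJ4, had a lambda contig in 0 of 62 barcodes with 1 heavy chain (exact upper bound 5.78%), with a median of 7 kappa UMIs. That of the Cre- library, with IGHV4-1 and IGHJ3, had one in 4 of 417, 0.959% (0.262 to 2.44), each at 1 or 2 lambda UMIs and with a median of 5 kappa UMIs. The other 1-heavy kappa barcodes had a lambda contig in 1.53% (1.12 to 2.03) in the Cre+ library and 1.46% (1.02 to 2.03) in the Cre- library. The lineage counts of 62 and 417 exceed the 60 and 394 lineage cells with a light chain, since no light chain was required there. A kappa contig was required in the other barcodes, so these shares have unlike bases. The 1-heavy barcodes with both chains had a median of 23 kappa UMIs in Cre+ and 17 in Cre-.

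The kappa chains beside lambda used 51 IGKV genes in 127 contigs. IGKV10-96 and IGKV4-72 were found in 10 each, IGKV9-123 in 8 and IGKV1-135 in 7, followed by IGKV1-117, IGKV19-93 and IGKV6-15 with 5 each. IGKV4-72, the light chain gene of the largest Cre+ lineage, was seen in 9 Cre+ contigs and 1 Cre- contig with a median of 1 UMI and at most 3. IGKV9-123, that of the largest Cre- lineage, was seen in 0 Cre+ and 8 Cre- contigs with a median of 2 UMIs and at most 5. IGKV4-72 made up 12% of kappa contigs in Cre+ lambda barcodes, against 3.02% in the other Cre+ barcodes. For IGKV9-123 in the Cre- library these shares were 15.4% and 12.4%. Both genes were at few UMIs beside lambda, but the largest lineages themselves had medians of only 7 kappa UMIs in Cre+ and 5 in Cre-. In the 4 barcodes of the Cre- lineage with a lambda contig, kappa was at 1 to 5 UMIs and lambda at 1 or 2. IGKV10-96 made up 10.7% against 5.26% in the Cre+ library and 3.85% against 4.88% in the Cre- library. It had 2 UMIs or fewer in 5 of its 10 contigs. IGKV1-135, IGKV1-117, IGKV19-93 and IGKV6-15 had medians of 26, 44, 24 and 43 UMIs, with no contig at 2 or fewer. IGKJ5, the last J gene of the kappa locus, was used by 36% (25.2 to 47.9) of kappa contigs in lambda barcodes of the Cre+ library, against 26.1% (24.7 to 27.5) in its other barcodes. In the Cre- library these shares were 30.8% (18.7 to 45.1) and 21.9% (20.5 to 23.3), and the intervals overlapped in both libraries. IGKJ1 was used by 16% (8.55 to 26.3) against 29.7% (28.3 to 31.2) in the Cre+ library, where the intervals do not meet, and by 34.6% (22.0 to 49.1) against 37.2% (35.6 to 38.9) in the Cre- library.

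Lambda cells without productive kappa more often held a kappa contig that was not productive. In cells with 1 heavy chain and lambda only, it was found in 31 of 124 in the Cre+ library, 25% (17.7 to 33.6), and in 24 of 102 in the Cre- library, 23.5% (15.7 to 33). In cells with 1 heavy chain and kappa only it was found in 9.25% (8.25 to 10.3) in the Cre+ library and 8.33% (7.33 to 9.43) in the Cre- library. The intervals of the lambda-only and kappa-only cells do not overlap in either library. The groups were chosen by productive kappa, so any kappa contig of a lambda-only cell is not productive. Each kappa-only cell already holds a productive one. How much of the difference follows from this choice was not tested.

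The tables also held contigs with a lambda J and constant gene but no V gene. There were 678 Cre+ and 470 Cre- contigs of this kind with IGLJ1, 759 and 545 with IGLJ2, and 702 and 678 with IGLJ3. Their medians were 2 UMIs for IGLJ1 and 8 for IGLJ2 and IGLJ3 in both libraries. Those with IGLJ3 were nearly absent from lambda-only cells, with 1 among 124 in Cre+, 0.806% (0.0204 to 4.41), and 1 among 102 in Cre-, 0.980% (0.0248 to 5.34). In kappa-only cells they were found in 19.8% (18.4 to 21.2) in the Cre+ library and 22.1% (20.5 to 23.7) in the Cre- library. Those with IGLJ1 were found in 4.84% (1.80 to 10.2) of Cre+ and 7.84% (3.45 to 14.9) of Cre- lambda-only cells, against 18.7% and 15.0% of kappa-only cells. Those with IGLJ2 were found in 11.3% (6.31 to 18.2) of Cre+ and 2.94% (0.611 to 8.36) of Cre- lambda-only cells, against 21% and 17.2% of kappa-only cells.

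Split by V gene, all of the IGLJ2 ones in lambda-only cells were in IGLV1 cells, 14 of 92 in the Cre+ and 3 of 63 in the Cre- library. None was seen in 18 IGLV2 and 18 IGLV3 cells of the Cre+ library or in 24 and 17 of the Cre- library, and with so few cells the upper bounds of these intervals lie between 14.2% and 19.5%. Those with IGLJ1 were found in 4 of 18 Cre+ and 4 of 24 Cre- IGLV2 cells, and in 2 of 92 Cre+ and 3 of 63 Cre- IGLV1 cells.

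**Figure D3:**
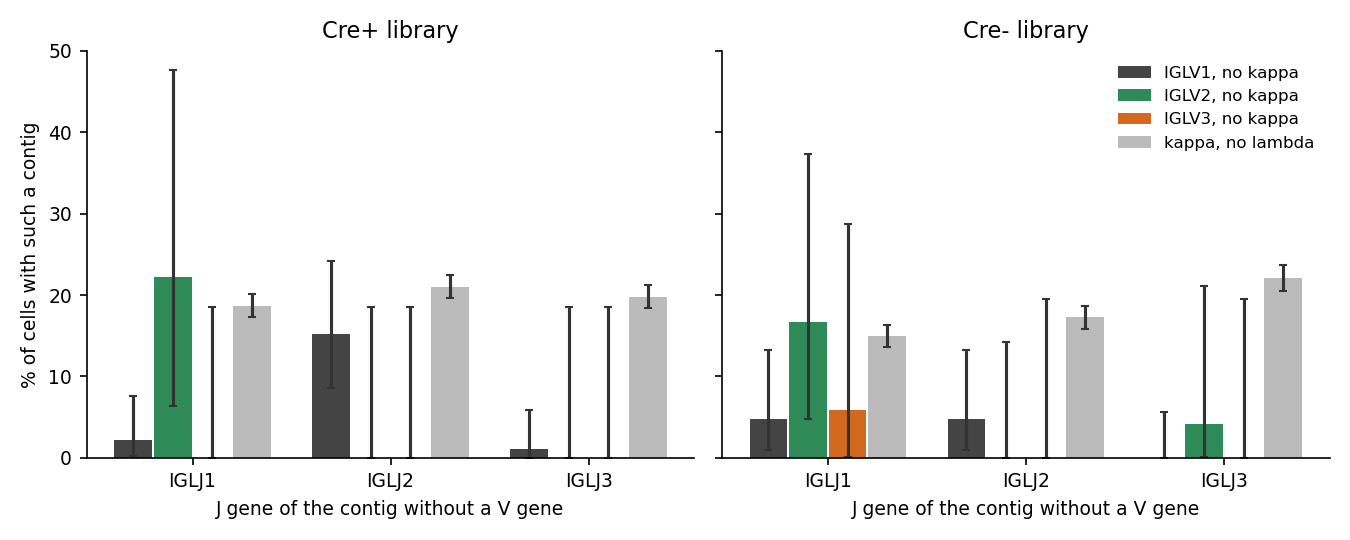
Percentage of cells with 1 heavy chain that hold a contig with a lambda J gene and no V gene, by J gene, for lambda-only cells of each V gene and for kappa-only cells (grey), in the Cre+ (left) and Cre- (right) library; bars are exact 95% intervals. Kappa-only cells hold all 3 kinds at 15.0% to 22.1%, while lambda-only cells hold the IGLJ3 kind at about 1% overall.

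Barcodes with 2 lambda chains were rare and of 1 main kind. There were 4 in each library, all with an IgM or IgD heavy chain. In 7 of the 8 the chains were IGLV1-IGLJ1 and IGLV3-IGLJ2, and in the remaining Cre- barcode they were called IGLV2-IGLJ2 and IGLV2-IGLJ1. The contig called IGLV2-IGLJ1 in that barcode carried AAC at codon 7 and a CDR3 found 38 times as IGLV1-IGLJ1. Its V gene call is therefore uncertain. In the Cre+ library the IGLV1 and IGLV3 chains had 73 and 61, 10 and 14, 46 and 32, and 43 and 22 UMIs. In the Cre- library they had 73 and 40, 22 and 17, and 8 and 32. Neither chain was at trace level in any of the 7. The heavy V gene IGHV9-3 was found in 3 of the 8 and IGHV1-55 in 2.

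Lambda contigs were nearly as well covered as kappa contigs. The median was 23 UMIs for Cre+ lambda contigs, which ranged between 1 and 1878, and 26 for Cre- lambda contigs, between 1 and 593. For kappa contigs it was 27 in each library. IGLV1 contigs had a median of 22.5 UMIs in Cre+ and 26 in Cre-, IGLV2 contigs 29 and 32, and IGLV3 contigs 23.5 and 23. IGLV2 had the highest median in both libraries, but the spread among contigs of a gene was wide, with quartiles of 18 and 43 in the Cre+ and 14.5 and 54.5 in the Cre- library for IGLV2. Only 6 of 203 Cre+ and 8 of 163 Cre- contigs had 2 UMIs or fewer. The highest value, 1878 UMIs, came from an IgA barcode of the Cre+ library with IGLV2-IGLJ1, IGHV14-3 at 397 UMIs and a kappa chain at 2430 UMIs.

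**Figure D4:**
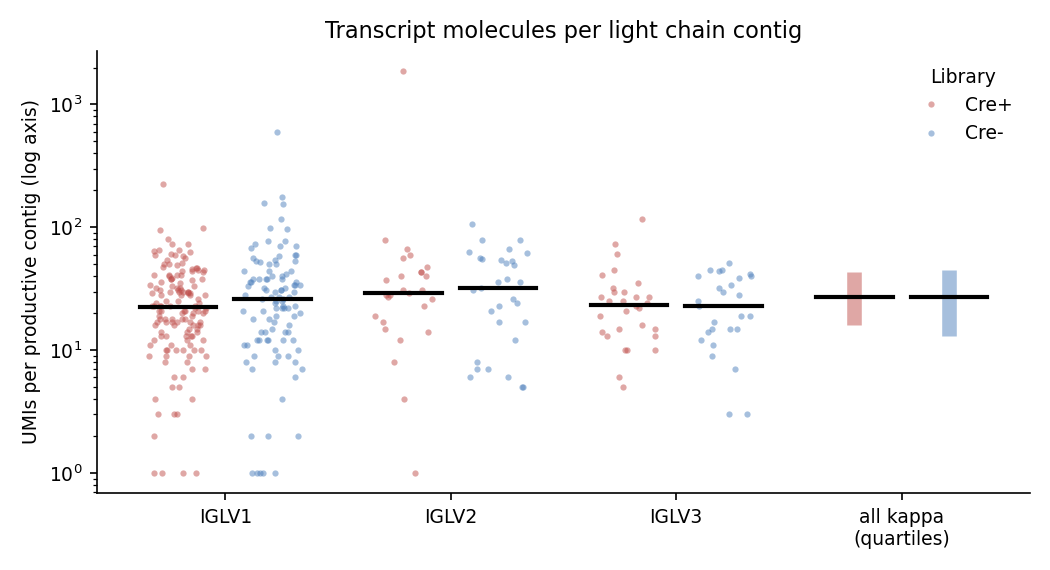
UMIs per productive lambda contig (log axis) by V gene and library (Cre+ red, Cre- blue); points are contigs, black lines medians, and the kappa columns show the median and the quartiles of all kappa contigs. Medians lie between 22.5 and 32 UMIs for the lambda genes and at 27 for kappa, and 1 IGLV2 contig of the Cre+ library reaches 1878.

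UMIs of the light chain were also set against those of the heavy chain, in cells with a single light chain. Light over heavy UMIs had a median ratio of 2.67 in 120 lambda cells of the Cre+ library, against 3.43 in 2847 kappa cells. It was 2.72 in 99 lambda cells of the Cre- library, against 3 in 2570 kappa cells. Without the largest lineages, an alternative chosen after seeing the data, the kappa median was 3.5 in both libraries. By class, IgM lambda cells had a median ratio of 2.79 against 3.52 for kappa in the Cre+ library, and 2.5 against 3.54 in the Cre- library. IgD lambda cells had 2.29 against 3.5 in the Cre+ library but 3.73 against 3.58 in the Cre- library, so the direction was not the same in every class. Light chain medians were 27.5 UMIs for lambda against 29 for kappa in the Cre+ library, and 32 against 28 in the Cre- library. Heavy chain medians were 9 against 8, and 12 against 10. The quartiles of the ratio overlapped widely, from 1.71 to 4.17 for Cre+ lambda cells and 1.93 to 5.83 for Cre+ kappa cells, so the difference is small beside the spread between cells. Lambda contigs with a kappa partner had a median of 16 UMIs in the Cre+ library and 22 in the Cre- library, against 27 and 30.5 for those without.

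Heavy chain partners were diverse. Lambda cells used 62 of the 95 IGHV genes seen in cells with a light chain, and the heavy CDR3 had a median length of 14 codons in lambda and in kappa cells of both libraries. One gene, IGHV9-3, had an exact interval in lambda cells that lay above that in kappa cells in both libraries, which is 1.05% of the 95 genes, and 0 genes lay below in both. Since these intervals were not adjusted for the number of genes, the count is a description.

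IGHV9-3 was found in 12 of 149 lambda cells of the Cre+ library, 8.05% (4.23 to 13.6), against 89 of 3113 kappa cells, 2.86% (2.30 to 3.51). In the Cre- library it was found in 12 of 122 lambda cells, 9.84% (5.19 to 16.6), against 63 of 2767 kappa cells, 2.28% (1.75 to 2.90). The lambda minus kappa difference was 5.19 points (1.32 to 10.8) in the Cre+ library and 7.56 (2.87 to 14.3) in the Cre- library. The 24 cells had 24 distinct heavy CDR3s of 10 to 19 codons with 4 IGHJ genes, so no lineage made up the excess. They were 15 IgM, 8 IgD and 1 IgG2b cells, and their light chains were 16 IGLV1, 2 IGLV2 and 6 IGLV3. Read the other way, lambda was the light chain of 11.9% (6.29 to 19.8) of IGHV9-3 cells in the Cre+ library and 16% (8.55 to 26.3) in the Cre- library.

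IGHV10-1 also stood higher in lambda cells, with 6 Cre+ lambda cells, 4.03% (1.49 to 8.56), against 0.867% (0.572 to 1.26) of kappa cells. In the Cre- library it was found in 5 lambda cells, 4.10% (1.34 to 9.31), against 0.976% (0.644 to 1.42) of kappa cells. The differences were 3.16 points (0.594 to 7.70) and 3.12 points (0.333 to 8.34). Among unswitched cells alone, an alternative chosen after seeing the data, the Cre- difference was 1.71 (-0.450 to 6.64). Its light chain was IGLV2 in 5 of 6 lambda cells in Cre+ and in 2 of 5 in Cre-. IGHV10-3, which was named after its values were seen, had IGLV2 in 4 of its 7 lambda cells. Among all barcodes with lambda as the main light chain, IGLV2 was found in 14.6% in Cre+ and 21.6% in Cre-.

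Among barcodes with lambda as the main light chain, whatever the heavy gene, IGLV1 was found in 73.2% in Cre+ and 62.7% in Cre-. Of the other heavy V genes with the most lambda cells, IGHV1-26 had IGLV1 in 11 of 12 lambda cells, IGHV8-8 in 11 of 12 and IGHV1-80 in 12 of 12. IGHV3-6 had it in 6 of 11. IGHV8-8 was found in 4.70% of lambda cells against 2.02% of kappa cells in the Cre+ library, and in 4.10% against 1.30% in the Cre- library. IGHV1-26 was found in 5.37% of lambda cells against 6.68% of kappa cells in the Cre+ library, and in 3.28% against 5.28% in the Cre- library. The intervals of the differences included 0 for IGHV1-26, IGHV1-80, IGHV8-8 and IGHV3-6 in both libraries. For IGHV8-8 in the Cre- library the lower bound lay just below 0.

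**Figure D5:**
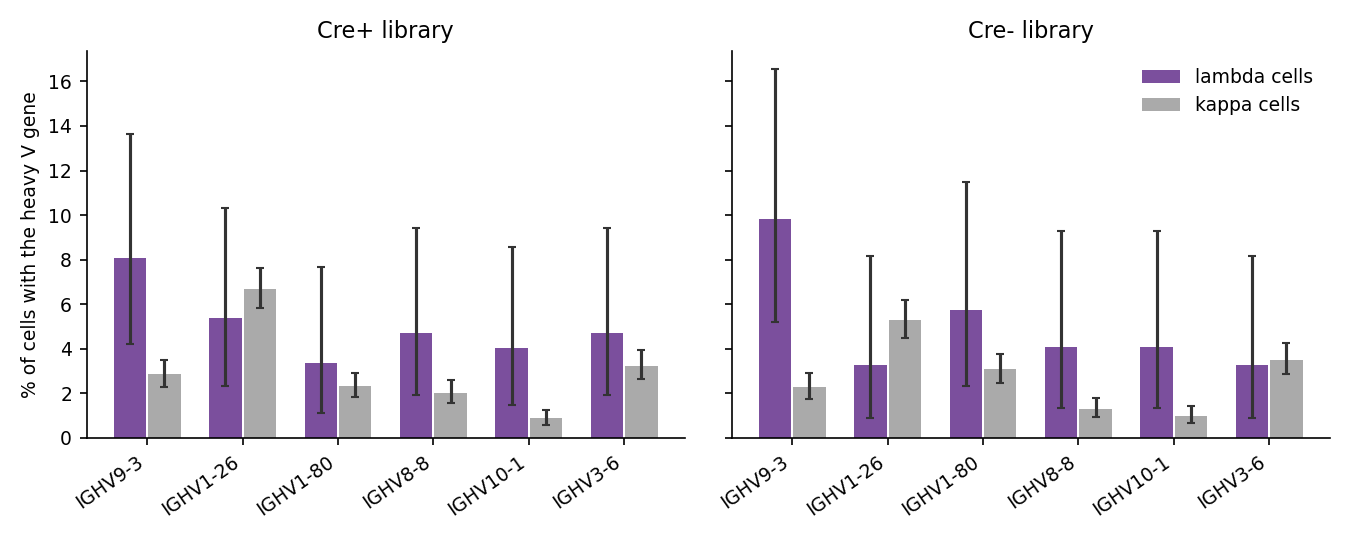
Percentage of lambda cells (purple) and kappa cells (grey) that use each of the 6 heavy V genes with the most lambda cells, in the Cre+ (left) and Cre- (right) library, with exact 95% intervals. IGHV9-3 stands at 8.05% and 9.84% of lambda cells, against 2.86% and 2.28% of kappa cells.

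Among heavy J genes, IGHJ4 was found in 32.2% of lambda cells against 24.8% of kappa cells in the Cre+ library, and in 27.0% against 21% in the Cre- library. IGHJ2 was found in 30.9% against 36.4% in the Cre+ library and in 39.3% against 30.5% in the Cre- library, so its direction differed. IGHJ1 was found in 16.1% against 17%, and in 16.4% against 16.3%. The intervals of these differences all included 0. IGHJ3 was found in 20.8% of lambda cells against 21.8% of kappa cells in the Cre+ library, and in 17.2% against 32.2% in the Cre- library. The largest Cre- lineage uses IGHJ3, and without the largest lineages, an alternative chosen after seeing the data, the Cre- difference of -15.0 points became -3.77 (-10.2 to 4.28). The Cre- differences also shrank for IGHJ2, from 8.84 to 3.78 (-5.16 to 13.2), and for IGHJ4, from 6.05 to 2.57 (-5.28 to 11.5). In the Cre+ library these genes went from -5.56 to -6.27 (-13.8 to 1.99) and from 7.42 to 8.89 (1.32 to 17.2).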

How the data were processed

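The 5' V(D)J libraries were made with 10x Genomics kits and, per the submitters' processing notes, processed with Cell Ranger and GRCm38; its version was not given. The deposited contig tables list, per the file headers, each contig's barcode, chain, V, J and constant gene, CDR3 and the count of reads and UMIs, which was not normalised. The 366 member contigs hold 13577 UMIs of the 711243 in the tables. All were marked as called cells with high confidence. The libraries shared 10 barcodes, of which 1 held a member contig. The clonotype tables were not used.

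Shares, exact intervals and medians were computed with pandas 2.3.3 and scipy 1.17.1 in Python 3.11.15, and the steps were checked on simulated data. Barcodes with 2 or more heavy chains were left out of shares of cells, and no doublet caller was run. A share of 0 is given with the limit that 3 counts of the total allow, or with its exact bound where said. No test was made, since there was 1 library per genotype. Named were all lambda V, J and C genes, all heavy constant and IGHJ genes, the 5 IGHV genes with the most lambda cells (6 with a tie), the 5 IGKV genes most often beside lambda (7 with ties), and the 2 most frequent CDR3s of each V-J pair with 5 or more contigs. The members and these lists were chosen with earlier results of these data known. Locus coordinates come from the RefSeq table of GRCm38.p6. Alternatives tried were other rules for barcodes and for the light chain of a cell, a minimum of 3 UMIs, each lineage counted once, exactly 1 light chain, and leaving out the largest lineage. Not analysed here were V region sequences outside the CDR3, and amino acids are not printed.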

Additional observations from a re-analysis of the deposited data

How the results depend on the processing

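Of 263 alternative values for 63 results, 253 lay within the interval of the main value and 10 lay outside. No difference whose interval excluded 0 changed sign, but 4 alternative values did where it included 0: the Cre+ minus Cre- difference in lambda share was -0.193 with each lineage counted once, and the IGHJ1 difference in the Cre- library was -2.64, -2.57 and -3.07 with each lineage counted once, without the largest lineage and in unswitched cells. The lambda share of switched Cre- cells was 3.95% with each lineage counted once and 3.64% without the largest lineage. The switched minus unswitched difference was then -1.10 and -1.40 points, with intervals that include 0. Counting each lineage once did not use the 85% identity rule. The Cre- lambda cells stayed at 122 in that count, against 121 lineages by the 85% rule, so the IgG2b pair was not merged. With at least 3 UMIs per light chain, kappa was found with lambda in 24.9% of Cre+ and 21.2% of Cre- lambda barcodes. Leaving out kappa contigs of the light V gene of each largest lineage, chosen after seeing the data, gave 28.1% in Cre+ and 25.2% in Cre-. The leading IGLV3-IGLJ2 sequence stood at 100% in Cre+ barcodes with exactly 1 light chain. The IGHJ3 difference in the Cre- library was -3.77 with each lineage counted once and without the largest lineage, and -3.65 in unswitched cells. An interval changed side of 0 for 11 alternative values of 6 differences, among them IGHJ4 in the Cre+ library, at 8.89 points without the largest lineage. No paired analysis was possible because there was 1 library per genotype. Cells of 1 lineage are not independent, and the 19 switched lambda contigs limit every statement on switched cells.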
